A study of Rattus norvegicus with 6 samples.

Results

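Heat shock chaperone genes were compared in UMR106-01 cells, an osteoblast-like line from a rat osteosarcoma, between cultures with and without the serine protease inhibitor AEBSF. They were the probe sets whose platform annotation gives exactly 1 gene symbol of the Hspa, Hspb, Hspd, Hspe and Hsph families, Hsp90a genes, Dnaja, Dnajb and Dnajc families, Bag, Cct, Tcp1, Stip1, Ahsa or Hsf. The genes Hspa5, Hspa13, Dnajb9, Dnajb11, Dnajc3 and Dnajc10, whose products sit in the lumen of the endoplasmic reticulum (ER), were left out. This gave 117 of 31042 probe sets and 77 of 14217 named genes. The AEBSF group was 3 cultures whose medium was changed at 64 h of culture to one with 400 µM AEBSF and 6.5 mM beta-glycerol phosphate, with RNA taken at 76 h, so after 12 h of inhibitor. The mineralizing group was 3 cultures given the same change of medium without the inhibitor and collected at the same time. All 6 cultures therefore had 10% fetal bovine serum and the phosphate source, and cultures without it were not analysed here. Whether the mineralizing cultures received the inhibitor's solvent is not stated in the labels. The line is a tumour-derived cell population, and every culture came from it.

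Heat shock chaperones bind unfolded or partly folded proteins. HSP70 proteins work in an ATP cycle that J proteins (the Dnaj genes) start and nucleotide exchange factors, such as the HSP110 and BAG proteins, reset. Client proteins can pass on to HSP90, to the cytosolic chaperonin CCT, which folds actin and tubulin, or, in mitochondria, to the chaperonin of HSP60 and HSP10. The transcription factor HSF1 induces many of these genes when unfolded cytosolic protein builds up, by binding heat shock elements, which are inverted repeats of the bases GAA. Bone-forming cells secrete large amounts of matrix through the ER, whose lumen has its own chaperones under separate control.

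Each culture gave 1 Affymetrix array, with 1 MAS5 signal (a brightness on a linear scale) per probe set. Of the 117 probe sets, 90 lay above the signal filter and were tested, which covered 66 of the 77 genes. The 11 genes below it were Dnajb3, Dnajb7, Dnajb13, Dnajc6, Dnajc22, Hspa1l, Hspa12a, Hspa12b, Hspb2, Hspb3 and Hsf2bp. Differences are log2 fold changes, AEBSF minus mineralizing, from limma with Benjamini-Hochberg adjustment over all 18625 tested probe sets and a threshold of 0.05. A gene with several probe sets is given by the one with the highest mean signal, and other probe sets are given for some genes. The 3' to 5' signal ratio of the Gapdh control was 1.05 to 1.08 in AEBSF cultures and 1.02 to 1.06 in mineralizing cultures. Of 11 osteoblast markers 8 had a named probe set and 7 were tested. Of the 7, 2 fell and 5 did not pass, against 9.22% lower over all tested genes. Log2 fold changes were negative in 6 of the 7, against 4902 of 9864 over all tested genes. Summed signals of the 8 were 24944 to 26021 in AEBSF and 26962 to 28071 in mineralizing cultures. The brightest marker, Ibsp, averaged 17101 ± 251 with AEBSF and 16520 ± 750 without (log2 fold change 0.051, limma adjusted p = 0.571). The markers that fell were the collagen genes Col1a2 and Col1a1. Col1a2 had 1724, 1485 and 1391 in AEBSF cultures and 3386, 3176 and 3438 in mineralizing cultures (log2 fold change -1.13, limma adjusted p = 1.27e-05). Col1a1 had 648, 657 and 547 with AEBSF and 1084, 952 and 909.5 without (log2 fold change -0.67, limma adjusted p = 0.00116). The part of these falls in the chaperone results was not tested. Summed signals of the macrophage, adipocyte, endothelial, muscle and chondrocyte markers were at most 267 in AEBSF and 344 in mineralizing cultures, and 3 of their 20 named genes (Csf1r, Des and Acan) lay above the filter. Fewer cells and less RNA per cell cannot be told apart in these values, and the arrays were scaled to a common level, so each change is measured against the array's overall level.

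With AEBSF, 16 of the 66 tested chaperone genes rose, 1 fell and 49 did not pass. Over all 9864 tested genes, 7.09% rose and 9.22% fell. Among chaperone probe sets 18 of 90 rose and 1 fell, against 5.99% higher and 7.41% lower over all tested probe sets. The largest rises were those of Stip1, Bag3, Hsph1, Ahsa1 and Dnajc2, from 1.53-fold to 1.29-fold, and the fall was that of Hspa4l. The median log2 fold change was 0.16 over the 66 chaperone genes and 0.0025 over all tested genes, and 48 of the 66 values were positive, against 4962 of 9864 over all tested genes. In 26 of the 66 genes all 3 AEBSF cultures lay above all 3 mineralizing cultures (background 17.0%), and in 3 all lay below (background 19.1%).

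The count of 18 rises was 9 without mineralizing culture 1, 8 without mineralizing culture 2 and 11 without AEBSF culture 2. The share of all tested probe sets that rose was 2.63%, 2.71% and 4.03% in these fits, against 5.99% with all cultures. With a constant variance prior, which does not follow the signal, 4 chaperone probe sets and 1.53% of all rose. With the arrays scaled to their hybridization controls instead, 2 chaperone probe sets rose and 5 fell, against 0.483% and 14.3% of all. This scaling moved the median of all genes to -0.166 and that of the chaperone genes to -0.011. Their distance of 0.155 was fixed in advance, since this scaling shifts all values of an array alike. Under that scaling the probe sets still higher were those of Stip1 and the second of Hsph1. With the constant prior they were those of Stip1 and Dnajc2 and both of Hsph1. For the brightest probe set of each gene, the calls of Ahsa1, Bag3, Hsf1, Cct3, Cct7, Cct6a and Cct8 were lost under both settings. So were those of Dnaja1, Dnaja2, Hspb6, Hspb8, Hspd1 and Hspe1. Median centring also ended the calls of Cct6a, Cct8, Dnaja1, Dnaja2, Hspb6, Hspb8 and Hspe1, testing without a filter those of Cct6a, Cct8, Hspb6, Hspb8 and Hspd1, and the replicate block those of Cct8, Hspb6 and Hspb8. Cct8 was also lost with quantile normalization, cyclic loess and the mean of its probe sets.

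**Figure D1:**
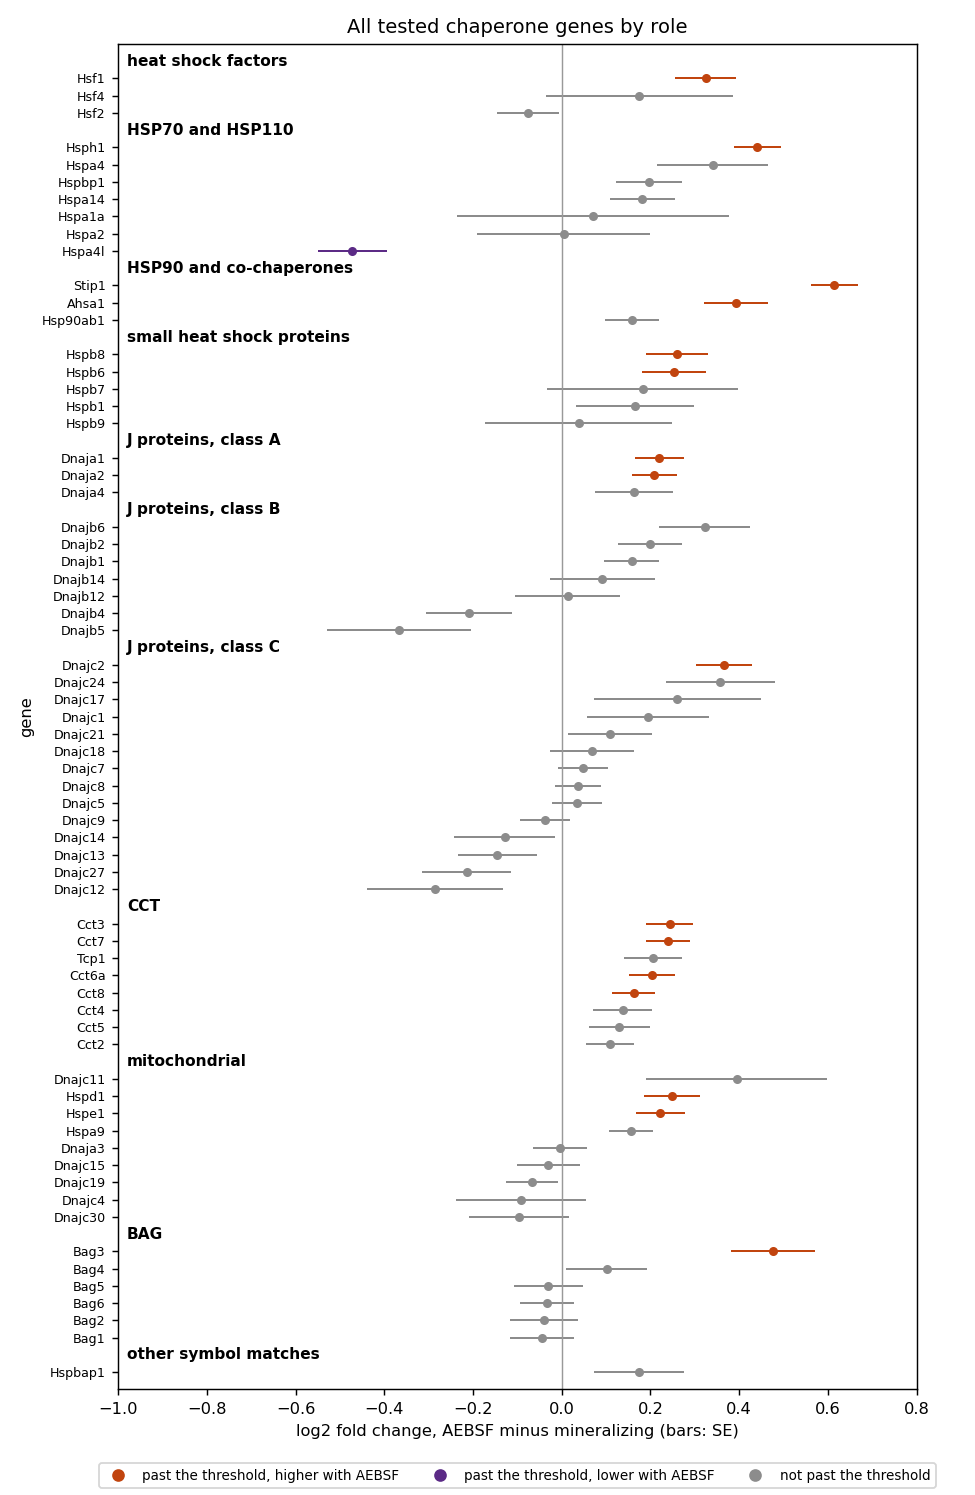
All 66 tested chaperone genes grouped by role (y axis), with the log2 fold change, AEBSF minus mineralizing, on the x axis. Points are limma estimates, bars are SE, and colour marks genes past an adjusted p of 0.05, of which 16 lie right of 0 and Hspa4l lies left of it.

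Among the heat shock factors, which switch on chaperone genes, only Hsf1 of 3 tested passed. Over all tested genes 7.09% rose and 9.22% fell. Hsf1, the main factor of the heat shock response in mammals, had signals of 1488, 1337 and 1284 in AEBSF cultures and 1088, 1086 and 1101 in mineralizing cultures. The groups did not overlap, and the rise was 1.25-fold (log2 fold change 0.32 with an SE of 0.069, limma adjusted p = 0.0113). Hsf2, a related factor, averaged 1630.0 ± 141 with AEBSF and 1714 ± 49.5 without (SD, n = 3 each; limma adjusted p = 0.516), and its groups overlapped. The other tested Hsf2 probe sets had log2 fold changes of 0.053 and -0.071. Hsf4, known for its role in the lens, had a dim probe set, with 103 ± 10.8 with AEBSF and 91.3 ± 14.7 without (limma adjusted p = 0.631). The Hsf1 call was lost with the hybridization scaling (limma adjusted p = 0.394) and with the constant prior (0.067).

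The promoters of chaperone genes were searched for heat shock elements, the sequences HSF1 binds, and the stretches printed here hold the long matches, with the pair that shares 1 shown once, and the match of Stip1, the gene with the largest rise. Promoters were taken from RefSeq (rat assembly GRCr8), as the 250 bases before and the 50 after each gene's start, and 63 of the 77 genes had an entry there. A unit was GAA or its reverse complement TTC. The long motif was 3 units in alternating orientation with any 2 bases between neighbours, starting with either, and the short motif was 2 such units. Both strands are covered, since each motif's reverse complement is among its forms, and every long match also holds short ones. The long motif was found in 5 of 64 chaperone promoters (7.81%) and in 267 of 33469 promoters of all genes (0.798%). Its 5 genes were Hsph1, Hspe1, Hspd1, Dnaja1 and Cct4. The first 4 of these are among the 13 genes that rose and have a promoter entry, and Cct4 did not pass. Hspd1 and Hspe1 lie head to head on chromosome 9 with starts 290 bases apart, so their promoters share 211 bases and the same match. The short motif was found in 19 of the 64 (29.7%) and in 15.9% of all promoters. Besides the 5 genes it included Stip1, Bag3, Cct6a, Hspb6 and Hspb8, which rose, and Hspa4l, which fell. The rest were Cct5, Dnajb1, Dnajb6, Dnajc18, Dnajc27, Hspa2, Hspa9 and Hspb1, which did not pass. It was in 9 of the 13 promoters of genes that rose and in 9 of 42 of those that did not pass, with no test. In the sequences below, each on the gene's own strand from 5' to 3', capitals mark the long motif, and in Stip1 the short one. Hsph1 is from chr12:10427258-10427367 (plus strand), Hspe1 from chr9:64084217-64084326 (plus), Stip1 from chr1:213657655-213657714 (minus), Dnaja1 from chr5:60638407-60638431 (plus) and Cct4 from chr14:101193076-101193100 (plus).
Hsph1, bases -110 to -1: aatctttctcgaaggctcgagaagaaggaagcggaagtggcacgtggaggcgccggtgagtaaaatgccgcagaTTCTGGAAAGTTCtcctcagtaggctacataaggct
Hspe1, bases -110 to -1: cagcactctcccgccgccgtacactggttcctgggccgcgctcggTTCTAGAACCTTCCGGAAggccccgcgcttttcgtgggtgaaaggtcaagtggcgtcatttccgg
Stip1, bases -60 to -1: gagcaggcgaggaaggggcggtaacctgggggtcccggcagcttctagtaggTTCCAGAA
Dnaja1, bases 4 to 28: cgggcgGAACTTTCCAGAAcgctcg
Cct4, bases 20 to 44: gtcgctTTCTGGAAGGTTCgtggag
The Hspe1 stretch holds 2 overlapping long matches, at bases -65 to -53 and -60 to -48, so its capitals hold 4 units. A match describes the letters in this window and no binding was measured.

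The HSP90 group had the largest rise. Stip1, which encodes the adaptor HOP that joins HSP70 to HSP90, had signals of 5445, 5785 and 5270.1 in AEBSF cultures and 3546, 3592 and 3631 in mineralizing cultures. All 3 AEBSF cultures stood above the mineralizing cultures, a 1.53-fold rise (log2 fold change 0.61 with an SE of 0.053, limma adjusted p = 5.79e-05). Stip1 passed under all 18 alternatives run, with limma adjusted p from 2.75e-05 to 0.0167, also with the hybridization scaling (log2 fold change 0.45). Ahsa1, whose product stimulates the ATPase of HSP90, had 5141, 5632 and 4898 with AEBSF and 3814, 3748 and 4389 without. Its groups did not overlap either, and it rose 1.31-fold (log2 fold change 0.39 with an SE of 0.072, limma adjusted p = 0.00508), a call lost with a constant variance prior (0.0672) and with the hybridization scaling (0.165). Hsp90ab1, the constitutive HSP90 itself, had 19863, 20499.5 and 19614 in AEBSF cultures and 16869, 17512 and 19449.6 in mineralizing cultures. The lowest AEBSF culture lay just above mineralizing culture 3, and the gene did not pass (log2 fold change 0.16, 95% interval 0.027 to 0.29, limma adjusted p = 0.106), except without mineralizing culture 3 (0.0233). Its second probe set lay at 0.18 on the same scale (limma adjusted p = 0.103). The stress-inducible HSP90 gene Hsp90aa1 shares its probe sets with other symbols and was not analysed here.

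Of the 7 tested HSP70 and HSP110 genes, 1 rose and 1 fell, against 7.09% and 9.22% of all tested genes. Both were of the HSP110 branch, which resets HSP70 by exchanging its nucleotide. Hsph1 had 6851, 7340.4 and 7332 in AEBSF cultures and 5107, 5364 and 5383 in mineralizing cultures. It rose 1.36-fold (log2 fold change 0.44 with an SE of 0.053, limma adjusted p = 0.000492), with no overlap of the groups. Its second probe set gave 3621, 3689.7 and 3781 with AEBSF against 2481, 2609 and 2558 without, a 1.45-fold rise (limma adjusted p = 0.000129), so both probe sets agreed in direction and call. With the hybridization scaling the first probe set did not pass (0.0588) and the second did (log2 fold change 0.37, limma adjusted p = 0.0101). Hspa4l, a close relative of Hsph1, had 612, 603 and 642 in AEBSF cultures and 907, 798 and 873 in mineralizing cultures. It fell 1.39-fold (log2 fold change -0.47 with an SE of 0.078, limma adjusted p = 0.00291) and was lower past the threshold under all 18 alternatives run. Hspa4, another HSP110 gene, had 1209.7, 1746 and 1798 with AEBSF and 1191, 1183 and 1329 without. AEBSF culture 1 lay within the range of the mineralizing cultures, and without it the gene passed (log2 fold change 0.52, limma adjusted p = 0.00247), against 0.34 and 0.0937 with all cultures.

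The HSP70 genes proper did not pass. Hspa1a, the classic stress-inducible HSP70, had 62.3, 107 and 53.1 in AEBSF cultures and 85, 54.6 and 65.9 in mineralizing cultures, near the filter of 67.2. Its groups overlapped, and the 95% interval of its log2 fold change, -0.60 to 0.74, was wide (limma adjusted p = 0.911). Hspa1a has a near-identical copy, Hspa1b, so its signal may hold both, and the probe set annotated to both genes was not analysed here, nor was Hspa8, the constitutive HSP70. Hspa2, known from testis, averaged 166 ± 32.5 with AEBSF and 165 ± 32.2 without. Hspa14, an HSP70 of the ribosome, had 1112, 1119 and 1264 with AEBSF and 973, 1079 and 1026 without, and Hspbp1, an exchange factor, averaged 780.0 ± 25.8 with AEBSF and 681 ± 30 without. Neither of these passed (limma adjusted p = 0.13 and 0.106), although in both all AEBSF cultures lay above all mineralizing cultures.

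Of 5 tested small heat shock protein genes, whose products hold unfolded proteins without ATP, 2 rose and 0 fell, against 7.09% and 9.22% of all tested genes. Hspb8 had 2655, 2321 and 2521 in AEBSF cultures and 1925, 2169.9 and 2168 in mineralizing cultures (1.20-fold; log2 fold change 0.26 with an SE of 0.069, limma adjusted p = 0.0296). Its second probe set also passed (1.26-fold, limma adjusted p = 0.0272). Bag3, whose product works with Hspb8 in sending misfolded proteins to autophagy, had 849.6, 774 and 759 with AEBSF and 536, 532 and 649 without. The groups of both genes did not overlap, and Bag3 rose 1.39-fold (log2 fold change 0.48 with an SE of 0.095, limma adjusted p = 0.00761). Hspb6, best known from muscle, averaged 972 ± 11.9 with AEBSF and 817 ± 52.7 without (1.19-fold, limma adjusted p = 0.0382). Hspb1 (HSP27) had 234, 289 and 233 with AEBSF and 215, 230.4 and 224 without and did not pass (limma adjusted p = 0.452). The first Hspb8 probe set was lost without AEBSF culture 1 or 3 or mineralizing culture 1 or 2 (limma adjusted p from 0.0574 to 0.125), and the second without AEBSF culture 1 or 2 or any 1 mineralizing culture (0.0607 to 0.0845), with the constant prior (0.0898) and with the hybridization scaling (0.412). Hspb6 was lost whichever 1 of the 6 cultures was left out (0.0549 to 0.135), and Bag3 was lost with a constant prior (0.054) and with the hybridization scaling (0.103).

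Of 6 tested BAG genes Bag3 alone passed, so that 1 rose and 0 fell (7.09% and 9.22% over all genes). Bag1, an exchange factor of HSP70, averaged 1859.9 ± 193 with AEBSF and 1912 ± 28.9 without, and Bag2 averaged 2428 ± 230.2 with AEBSF and 2493 ± 184 without. The log2 fold changes of Bag1, Bag2, Bag5 and Bag6 lay between -0.045 and -0.03, with a second probe set of Bag6 at 0.13 (SE 0.13), and Bag4 was at 0.10 (SE 0.092). The difference in change between Bag3 and these genes was not tested.

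**Figure D2:**
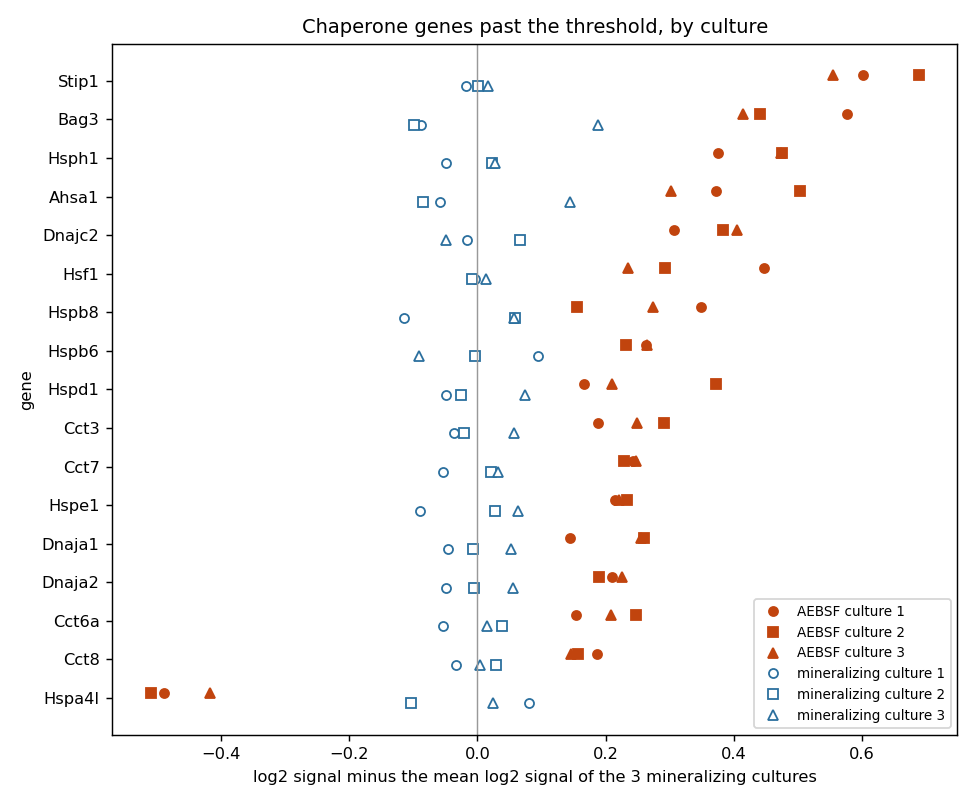
Each culture's log2 signal minus the mean of the 3 mineralizing cultures (x axis) for the 17 chaperone genes past the threshold (y axis). Filled symbols are AEBSF cultures and open symbols mineralizing cultures, with 1 shape per culture number, which the main fit did not use as a pair. In all 17 the groups stand apart, with Hspa4l alone to the left. The genes were chosen by a test on these same values, so this is not separate evidence.

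Of 24 tested J protein genes outside mitochondria, 3 rose and 0 fell, against 7.09% and 9.22% of all tested genes. Of the 3, 2 were class A, the J proteins built like the bacterial DnaJ. Dnaja1 had 5039, 5457 and 5439 in AEBSF cultures and 4414, 4535 and 4728 in mineralizing cultures (1.16-fold, limma adjusted p = 0.0221). Its second probe set did not show the rise, with 1687, 1765 and 1816 with AEBSF against 1816, 1751 and 1783 without (log2 fold change -0.023), and the mean of both did not pass (limma adjusted p = 0.206). Dnaja2 had 6744, 6648 and 6812 with AEBSF and 5631, 5807 and 6055 without, a 1.16-fold rise (log2 fold change 0.21 with an SE of 0.05, limma adjusted p = 0.0197). The third, Dnajc2, is the ribosome-bound partner of Hspa14. It had 1422, 1498 and 1522 with AEBSF and 1136, 1204 and 1111 without, with no overlap (1.29-fold; log2 fold change 0.36 with an SE of 0.063, limma adjusted p = 0.00382). Dnajc2 was lost only with the hybridization scaling among the 18 alternatives (0.238). Dnaja1 was lost without AEBSF culture 2 or 3 or mineralizing culture 1 or 2 (0.0553 to 0.0854), and Dnaja2 without AEBSF culture 1 or mineralizing culture 1 or 2 (0.0544 to 0.0815).

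Class B J proteins gave 0 calls among 7 tested genes in limma, against 7.09% higher and 9.22% lower over all tested genes. An unadjusted limma p under 0.05 was seen in 4, with Dnajb1, Dnajb2 and Dnajb6 upward and Dnajb5 downward. That cut was not counted over all genes. Dnajb1, the inducible HSP40, had 1237, 1162 and 1198 in AEBSF cultures and 1077, 1055 and 1092 in mineralizing cultures. The groups did not overlap, and a second probe set gave nearly the same difference (log2 fold change 0.16 and 0.16), but neither passed (limma adjusted p = 0.118 and 0.162). Dnajb6, which holds back aggregation of polyglutamine proteins, had 3041, 4168 and 3437 with AEBSF and 2544, 2834 and 3089 without. AEBSF culture 2 stood highest and AEBSF culture 1 within the mineralizing range; the gene did not pass with all cultures (limma adjusted p = 0.0574) but did without AEBSF culture 1 (0.0218), with median centring (0.0485), the 60th percentile filter (0.0451) and the replicate block (0.0323). Dnajb4 and Dnajb5 had negative log2 fold changes, at -0.21 and -0.37 (SE 0.10 and 0.16), and a second probe set of Dnajb5 was at 0.32; neither gene passed.

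The 14 tested class C J proteins outside mitochondria, a mixed class that shares little beyond the J domain, spread from -0.29 for Dnajc12 to 0.36 for Dnajc2, with a median of 0.042. Dnajc24, which acts in making diphthamide on a translation factor, had 341, 304 and 346 with AEBSF and 270.1, 228 and 277 without, groups that did not overlap (limma adjusted p = 0.0758). Dnajc27, a Rab-like GTPase with a J domain, lay lower in all 3 AEBSF cultures, at 469, 431 and 495, than in the mineralizing cultures, at 515, 503 and 605 (limma adjusted p = 0.186). Dnajc9, a histone chaperone, averaged 3799.7 ± 63.2 with AEBSF and 3905 ± 219 without, and Dnajc5, Dnajc7 and Dnajc8 had log2 fold changes of 0.034, 0.047 and 0.037. Other probe sets of Dnajc5 were at -0.039 and 0.22. The J proteins Dnajc1, Dnajc14, Dnajc18, Dnajb12 and Dnajb14 are anchored in the ER membrane, so the chosen set is not wholly cytosolic and mitochondrial. The log2 fold changes of their brightest probe sets lay between -0.13 and 0.20, and none passed (limma adjusted p from 0.387 to 0.958). Hspbap1 and Hsf2bp match the symbol rule by the proteins they bind and are not chaperones; Hspbap1 lay at 0.17 (limma adjusted p = 0.284).

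All 8 measured subunits of the chaperonin CCT had positive changes, of which 4 passed. All 8 have a mean signal over 4096, where 71.1% of all probe sets were positive and 15.5% rose. Cct3 had 9676, 10388 and 10093 in AEBSF cultures and 8276, 8369.7 and 8835 in mineralizing cultures (1.18-fold; log2 fold change 0.24 with an SE of 0.053, limma adjusted p = 0.0119). Cct7 had 12261, 12153 and 12314 with AEBSF and 9989.9, 10525 and 10605 without (1.18-fold; 0.24 with an SE of 0.049, limma adjusted p = 0.00941). Both stood apart in every culture. Cct6a and Cct8 rose 1.15- and 1.12-fold (limma adjusted p = 0.0248 and 0.0456). Tcp1, the subunit that gave the complex its first name, had 11798, 12810.0 and 11931 with AEBSF and 10008, 10137 and 11584 without and missed the threshold (limma adjusted p = 0.0549). Cct4 had 13009.9, 14603 and 13231 with AEBSF against 11775, 11875 and 13522 without, where mineralizing culture 3 lay inside the AEBSF range. Cct5 showed the same overlap, with 13616, 15268 and 14106 with AEBSF against 12364, 12539 and 14451 without. In a second Cct5 probe set the groups did not overlap, with 10473, 11052 and 10231 with AEBSF against 8768, 9073 and 10148 without (log2 fold change 0.18, limma adjusted p = 0.0723). Cct2 averaged 13807 ± 40.2 with AEBSF and 12818 ± 703 without. The log2 fold changes of Cct2, Cct4 and Cct5 were 0.11, 0.14 and 0.13 (limma adjusted p = 0.209, 0.205 and 0.242).

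The CCT values varied with the probe set, the scaling and the cultures. A second probe set of Cct8 went the opposite way, with 2062, 2310.1 and 2234 with AEBSF against 2421, 2430.3 and 2511 without (log2 fold change -0.16, limma adjusted p = 0.101). With the hybridization scaling Cct2, Cct4, Cct5 and Cct8 lay below 0 (-0.060, -0.031, -0.039 and -0.0057), and no subunit passed by its brightest probe set, while the second of Cct8 was lower past the threshold (log2 fold change -0.33, limma adjusted p = 0.0303). Cct3 was lost without mineralizing culture 2 (limma adjusted p = 0.0617), Cct6a without AEBSF culture 2 or 3 or mineralizing culture 1 or 2 (0.0574 to 0.0864), and Cct8 whichever 1 of the 6 cultures was left out (0.0698 to 0.14). Tcp1 passed without mineralizing culture 3 (0.0146) and under 5 other settings (0.0451 to 0.0489). Mineralizing culture 3 held the highest value of its group in 16 of the 20 chaperone probe sets with a mean signal over 4096, and AEBSF culture 2 in 15 of 20. The Gapdh control was also highest in those cultures, at 24299 in AEBSF culture 2 and 22846 in mineralizing culture 3; its part in these results was not tested.

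Bright probe sets as a whole leaned towards AEBSF. Of all 977 tested probe sets with a mean signal over 4096, 15.5% rose and 5.73% fell, with a median log2 fold change of 0.073. Of the 20 chaperone probe sets in that range, 11 rose and 0 fell, all 20 values were positive, against 71.1% of all probe sets there, and the median was 0.20. They are probe sets of all 8 CCT genes, of Hsp90ab1, Hspd1, Hspe1 and Hspa9, and of Hsph1, Stip1, Ahsa1, Dnaja1 and Dnaja2. Between signals of 1024 and 4096, 4 of 25 chaperone probe sets rose and 0 fell, with a median of 0.034, against 10.7% and 11.6% of all probe sets there. Between 256 and 1024, 3 of 29 rose and 1 fell, against 5.86% and 9.34% of all probe sets there. Quantile normalization and cyclic loess left 18 chaperone probe sets higher each, 17 of them shared with the values as deposited. Of all tested probe sets, 6.24% and 6.17% were then higher. The median of the chaperone genes was 0.11 and 0.12, against 0.16 as deposited. How far these settings changed the lean of bright probe sets was not tested. Cyclic loess was chosen after seeing the data.

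**Figure D3:**
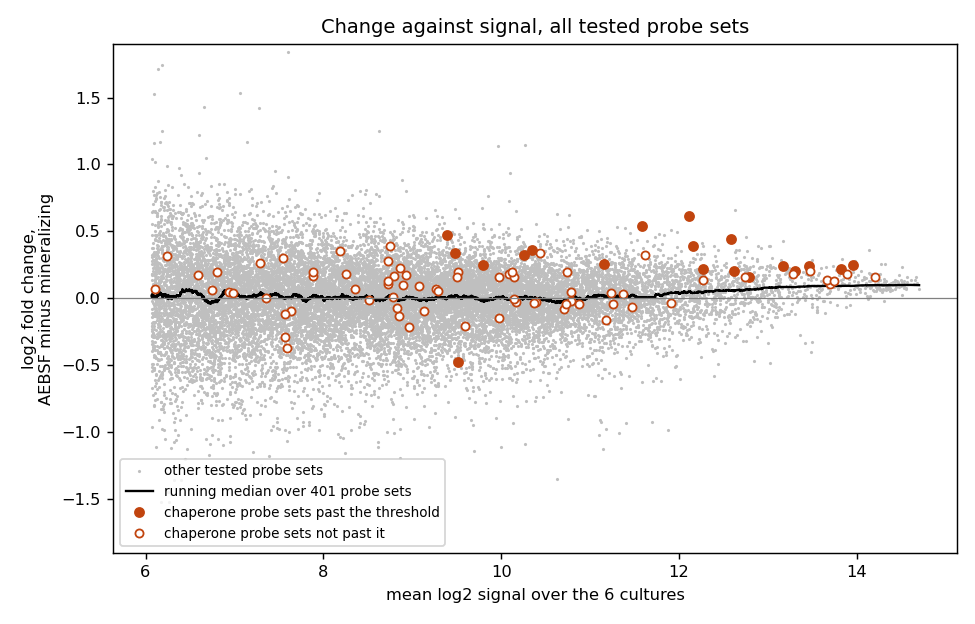
The log2 fold change, AEBSF minus mineralizing (y axis), against the mean log2 signal over the 6 cultures (x axis), for all 18625 tested probe sets. Grey points are other probe sets, the line is their running median with the chaperones included, and circles are the 90 chaperone probe sets. The line rises above 0 at high signals, and the 20 chaperone probe sets with a signal over 4096 all lie above 0.

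In mitochondria both chaperonin genes rose and no other gene passed. Of 9 tested genes, 2 rose and 0 fell, against 7.09% and 9.22% of all tested genes. The median of the 9 was -0.004, and 5 were negative. Both chaperonin genes have a mean signal over 4096, where 15.5% of all probe sets rose and 71.1% were positive. Hspd1, which encodes the chaperonin HSP60, had 16323, 18810.0 and 16809 in AEBSF cultures and 14055, 14290.1 and 15310.4 in mineralizing cultures. Hspe1, its lid HSP10, had 15551, 15749 and 15612 with AEBSF and 12589, 13662 and 13996 without. In both genes every AEBSF culture lay above every mineralizing culture, with rises of 1.19- and 1.17-fold (log2 fold change 0.25 and 0.22, SE 0.063 and 0.054, limma adjusted p = 0.0243 and 0.0202). Hspa9, the mitochondrial HSP70 mortalin, had 7019.6, 7169.6 and 7448 with AEBSF and 6573, 6377 and 6454 without, groups that did not overlap, and did not pass (limma adjusted p = 0.0564), except with the 60th percentile filter (0.0433). Of its 3 other probe sets, 2 had values of 0.14 and 0.28 and the dimmest -0.013. Dnaja3, the J protein that serves Hspa9, averaged 1133 ± 32.1 with AEBSF and 1136 ± 8.51 without, a difference of -0.004 with a 95% interval of -0.14 to 0.13. Dnajc15 and Dnajc19, J proteins of the import motor, were at -0.03 and -0.067. Hspd1 was lost without AEBSF culture 2 or mineralizing culture 1 or 2 (limma adjusted p = 0.0776 to 0.0955), and Hspe1 without AEBSF culture 1 or 2 or mineralizing culture 1 or 2 (0.054 to 0.0701). Among the other genes of mitochondrial import and quality control, 1 of 15 tested rose, Clpp, and 0 fell, a share of 6.67% against 7.09% of all tested genes, with a median of 0.023. Clpp, a protease of the matrix, had 1799, 1876 and 1828 with AEBSF and 1369, 1432 and 1452 without (1.29-fold, limma adjusted p = 0.00199), and was lost with the hybridization scaling (0.212).

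Co-chaperones of HSP90 and HSP70 that the symbol rule did not take in also moved. Of 21 tested, 9 rose, 0 fell and 12 did not pass, against 7.09% higher and 9.22% lower of all tested genes. Their median log2 fold change was 0.20. The 3 negative values were those of Fkbp8, Nudcd2 and Cdc37l1, at -0.23, -0.25 and -0.11. Of those that rose, Cdc37, Ppid and Ptges3 have a mean signal over 4096, where 15.5% of all probe sets rose. Fkbp4, a prolyl isomerase that binds HSP90 beside steroid receptors, had 4963, 5056 and 4369 in AEBSF cultures and 3374, 3342 and 3461 in mineralizing cultures (1.41-fold; log2 fold change 0.50 with an SE of 0.062, limma adjusted p = 0.000605). Ppid, the cyclophilin of that complex, had 7329, 7269.7 and 7640.3 with AEBSF and 5437, 6005 and 5900.1 without (1.28-fold, limma adjusted p = 0.00183). Both were higher in all 3 AEBSF cultures than in any mineralizing culture. Ppp5c, a phosphatase bound to HSP90, averaged 891 ± 11.4 with AEBSF and 711 ± 8.88 without, and Cdc37, which brings kinases to HSP90, averaged 6046 ± 274 with AEBSF and 4970.3 ± 89.5 without (limma adjusted p = 0.00986 and 0.0056). Tomm34, a carrier of mitochondrial precursors that binds both chaperones, rose 1.44-fold (limma adjusted p = 0.00112), a call lost with the mean of its probe sets (0.599). With the hybridization scaling Fkbp4 and Tomm34 passed (0.0314 and 0.0356), and Ppid, Ppp5c and Cdc37 did not (0.198, 0.415 and 0.51). Cdc37 was also lost with the constant prior (0.067).

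Prefoldin, which hands actin and tubulin to CCT, and the tubulin cofactors gave 1 rise and 0 falls among 14 tested genes, a share of 7.14% higher against 7.09% of all tested genes, with a median of 0.014. The rise was that of the prefoldin subunit Pfdn6, at 2671 ± 97.8 with AEBSF and 2315 ± 104 without (limma adjusted p = 0.0359), lost without AEBSF culture 2 or 3 or any 1 mineralizing culture (0.0591 to 0.12), and also with median centring, no filter, the constant prior, the replicate block or the hybridization scaling.

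Of the 6 ER lumen genes left out of the set 4 fell and 0 rose, against 9.22% and 7.09% of all tested genes, with a median of -0.30. Dnajc3, an ER J protein induced by the unfolded protein response, had 1309, 1104 and 1204 in AEBSF cultures and 1677, 1607 and 1732 in mineralizing cultures (1.39-fold lower; log2 fold change -0.47 with an SE of 0.072, limma adjusted p = 0.00179). Dnajb11, which works with the ER chaperone BiP, had 2933, 2479 and 2788 with AEBSF and 3665, 3192 and 3360.3 without. In both genes all AEBSF cultures lay below all mineralizing cultures. Hspa13 and Dnajc10 fell 1.21- and 1.14-fold (limma adjusted p = 0.0264 and 0.0418), and each was lost without 5 of the 6 cultures in turn, AEBSF culture 3 being the exception (0.067 to 0.101 and 0.0879 to 0.141). Dnajb11 was lost without mineralizing culture 1 (0.0702) and with the constant prior (0.0994). Hspa13 and Dnajc10 were also lost with median centring, the constant prior and the replicate block, and Dnajc10 also without a filter or when its probe sets were averaged. Hspa5, which encodes BiP, averaged 20069 ± 1022 with AEBSF and 20316 ± 1090.3 without, and Dnajb9, another J protein of BiP, averaged 1386 ± 276 with AEBSF and 1774 ± 193 without. Neither passed (limma adjusted p = 0.882 and 0.0711), and the groups overlapped in both. The difference in change between the ER lumen genes and the chaperone genes outside it was not tested.

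**Figure D4:**
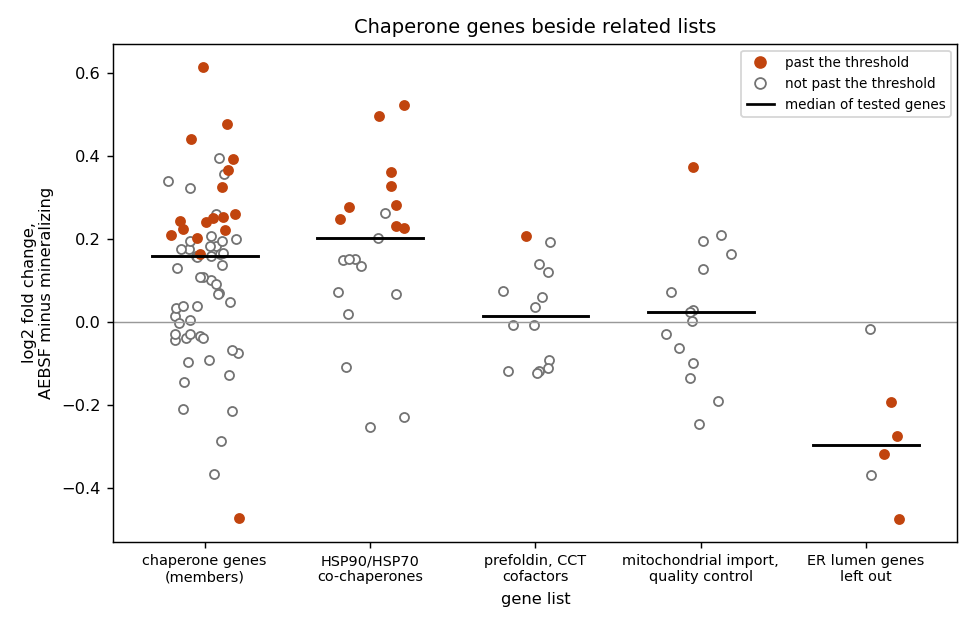
Log2 fold change, AEBSF minus mineralizing (y axis), of each tested gene of the chaperone set and of the related lists (x axis). Filled points passed an adjusted p of 0.05 and lines are medians, at 0.16 for the chaperone genes, 0.20 for the co-chaperones, 0.014 for prefoldin and CCT cofactors, 0.023 for mitochondrial import and quality control and -0.30 for the ER lumen genes.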

How the data were processed

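Every array has 1 deposited intensity for each probe set, on a linear scale. The submitters' processing notes name MAS5 and GCOS, with no version, and the scaling target is not stated. The mean after trimming 2% at each end was 500.1 or 500.2 on every array. The 57 control probe sets were left out, and 31042 remained. Symbols came from the platform annotation: 20826 probe sets had exactly 1, 436 several and 9780 none. Symbols were updated through Entrez identifiers, which changed 0 of the chaperone symbols. A probe set with several symbols was not used, so Hspa8, Hsp90aa1 and Hspa1b are not reported.

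Log2 signals with no added constant were fitted in R 4.3.3 with limma 3.58.1 (lmFit, eBayes with a prior following the mean signal). Tested were the 18625 probe sets above the 40th percentile of mean log2 signal, a signal of 67.2. Group values are means ± SD over 3 cultures, and intervals are 95% limits from limma. The p-values measure the spread between cultures of 1 line. The script was tested on simulated data. Members, lists and tests were chosen with earlier results of these data known. Named are all genes past the threshold, the brightest probe set of each role, fixed genes, and up to 5 called genes of each related list. Other chaperone genes named to show the rest of a role were chosen after their values were seen. Alternatives covered normalization, added constant, filter, variance prior, probe set choice, replicate block and each array left out.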

Additional observations from a re-analysis of the deposited data

How the results depend on the processing

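Chaperone probe sets past the threshold numbered 18 higher and 1 lower, and all probe sets 2495. With single cultures left out the rises ranged from 8 to 18, the falls stayed at 1, all calls ranged from 1203 to 2257, and the median of the chaperone genes from 0.128 to 0.164 (0.157 with all cultures). With a constant prior 4 chaperone probe sets rose and 885 of all passed. The hybridization scaling gave 2 rises and 5 falls, turned the median to -0.011 and Cct8 to -0.0057, and split all calls into 90 higher and 2670 lower, against 1115 and 1380; it shifts all values of an array alike. The median was 0.109 after quantile normalization, 0.120 with cyclic loess, 0.134 with 64 added and 0.130 when the probe sets of each gene were averaged. Median centring gave 12 rises, with 4.41% of all tested probe sets higher. Testing all probe sets without a filter gave 13, with 2.29% of all higher. The 60th percentile filter gave 21, with 9.58% of all higher. A variance prior made robust to outlying variances gave 19, with 6.15% of all higher. Deviations from the group means had correlations of 0.011, -0.12 and -0.036 between same-numbered cultures, so no shared effect of a replicate number was seen. Whether the cultures were set up in pairs cannot be settled by these values. With a replicate block 16 chaperone probe sets rose, 15 of them shared, and 1802 of all passed. Of the 17 chaperone genes past the threshold, 8 passed by their brightest probe set whichever culture was left out. Of 18 other named chaperone genes 5 passed under some alternative, and 12 changed sign under some alternative. Neither was counted over all tested genes. Apart from the settings named, the cause of a lost call was not tested. Probe sets below the filter allow no statement on their genes.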

Other observations

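Among chaperone genes that did not pass, probe sets of the same gene sometimes disagreed. Dnajb5 had 170.4 ± 18.1 with AEBSF and 221 ± 35.3 without in its first probe set (log2 fold change -0.37, SE 0.16) and 86.5 ± 22.8 and 70.5 ± 23.2 in its second (0.32, SE 0.30). Dnajc14, a J protein of the ER membrane, gave -0.13 and 0.17. The mitochondrial gene Dnajc11 gave 0.39 and 0.073, where the first probe set had 558, 567 and 377 with AEBSF and 486, 267 and 404 without, groups that overlapped. Hspb7, a small heat shock protein of heart muscle, had 224, 388 and 394 with AEBSF and 222, 331 and 318 without, so that 1 culture of each group lay well below its other cultures.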
